A study of Rattus norvegicus with 8 samples.

Results

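The 10 genes described here encode mechanosensitive or stretch-linked ion channels, namely Piezo1, Piezo2, Trpv2, Trpv4, Trpc1, Trpm7, Pkd2, Tmem63a, Tmem63b and Kcnk2. They were chosen by gene symbol, and all 10 are among the 31699 rows of the deposited table. AFCs, the cells of the annulus fibrosus (AF), which is the outer fibrous ring of the intervertebral disc, were isolated from Sprague Dawley rats. The 4 Lv-Ctrl samples had received the lentiviral vector pLVX-shRNA-Puro, and the 4 Lv-Piezo1 samples had received pLVX-shRNA-Puro-Piezo1, which carries a short hairpin RNA against Piezo1. The cells of both groups were kept under cyclic mechanical stretch (CMS), so no unstretched sample enters any comparison here. By the methods of the study, AF tissue of several rats was pooled for each isolation, third-passage cells were used, and the RNA-seq samples of each group were 4 biological repeats. The sample labels give no age and do not say which samples of the groups came from the same isolation.

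Mechanosensitive channels open when the membrane or its attachments are put under tension, and the ions that pass carry the mechanical signal into the cell. Piezo proteins, the TRP channels and the TMEM63 proteins admit cations, several of them calcium, whereas the two-pore potassium channel TREK-1, encoded by Kcnk2, lets potassium out and holds the membrane at a more negative voltage. AF cells are stretched by the pressure of the disc core with each movement of the spine, and calcium entry through stretch-opened channels is a studied route from load to cell response in disc and cartilage.

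The level of the targeted gene went against the label. Piezo1 was higher in the samples labelled Lv-Piezo1 than in those labelled Lv-Ctrl, so the groups are called by their labels below, and no direction is read as an effect of less Piezo1. The study reports that it verified the knockdown by this vector, and those data are not part of the values used here. The values were TPM, a transcript abundance scaled for transcript length and for the total of the sample. Sequencing depth cannot be read from TPM and is unknown, so errors here are the spread between the 4 samples of a group. The groups were compared with limma on log2(TPM + 1), on which low genes appear to change less than they do, and 13103 genes whose mean TPM reached 1 entered the fit. Log2 fold changes are Lv-Piezo1 over Lv-Ctrl, and each adjusted p is the Benjamini-Hochberg value over all those genes. The median gene had a log2 fold change of 0.14 on the deposited scale. Median-ratio scaling brings the median gene near 0 by construction, here to -0.0046, so it cannot show whether the 0.14 is a matter of scale. That was not tested. A shared shift of scale would add to rises and make falls look smaller. Values after this scaling are therefore also given for the tested channels and for part of the other genes.

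The AFC label was read against its markers. Marker counts are at an adjusted p below 0.05, where 41.9% of all tested genes were higher and 16.3% lower. After median-ratio scaling these shares were 27.9% and 27.9%. Of 11 AF markers, 9 were tested, 4 rose, 4 fell and their summed TPM ran from 8377 to 9673 in Lv-Ctrl and from 10888.5 to 11677.5 in Lv-Piezo1 samples, while Tnmd was near 0 and Col2a1 below 1 TPM. The higher sum was led by Col1a1 (mean 3282 in Lv-Ctrl, 5835 TPM in Lv-Piezo1 samples) and Col1a2 (2316 and 3795 TPM). Among the 4 that fell were Col12a1 (1560 to 517 TPM, log2 fold change -1.59) and Dcn (1456 to 519 TPM, -1.49), the largest changes of the tested AF markers. Genes of smooth muscle and pericytes moved with the groups. All 9 tested of 11 differed, 7 higher and 2 lower in the Lv-Piezo1 samples, or 6 and 2 after median-ratio scaling, where 1 did not pass. Their sum was 801 to 832 TPM in Lv-Ctrl against 4551 to 4724 TPM in Lv-Piezo1 samples. The rise was led by Tagln (219 to 2730 TPM) and Acta2 (51.2 to 1344 TPM). The 2 lower genes went far the other way, Kcnj8 from 326 to 39.1 TPM (log2 fold change -3.03) and Abcc9 from 73.7 to 12.3 TPM (-2.49). Markers of nucleus pulposus and notochord summed to 5.78 to 6.68 against 22.1 to 26.7 TPM, with Tbxt listed at 0. Cd24 carried that rise (3.79 to 21.9 TPM). Macrophage and leukocyte markers summed to 0.60 to 2.72 against 12.8 to 14.0 TPM, with Adgre1 and C1qa listed at 0. Here the rise was carried by Cd68 (mean 0.955 to 12.3 TPM). Endothelial markers stayed between 0.34 and 0.62 TPM in all samples. Markers of sensory neurons and Schwann cells ran from 1.01 to 1.29 against 2.08 to 4.6 TPM, and Sox10, Scn10a and Calca were listed at 0. The part of these markers in the channel differences was not tested, and in bulk samples fewer cells of a type and less RNA per cell cannot be told apart.

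Of the 10 channel genes, 9 passed the filter on low TPM, and Piezo2 was below it. At an adjusted p below 0.05, 6 of the 9 were higher and 1 was lower in the Lv-Piezo1 samples, and 2 did not pass. Over all tested genes 41.9% were higher and 16.3% lower at that threshold, 58.2% together. With a log2 change of at least 1 as well, Trpv2 was called higher and Kcnk2 lower, against 4.91% and 2.76% of all tested genes and 7.67% in either direction. The samples of the groups did not overlap in 7 of the 9 tested channels, all but Trpm7 and Pkd2, and in 54.2% of all tested genes. They did not overlap in Piezo2 either, which is below the filter. The median log2 fold change of the 9 was 0.38. After median-ratio scaling the channel counts were again 6 higher and 1 lower, with Trpv2 and Kcnk2 past the fold threshold, but the shares of all tested genes became 27.9% higher and 27.9% lower, and 3.92% and 3.57% past the fold threshold. The 9 channels lay within the cloud of all genes, with Trpv2 and Kcnk2 toward its edges.

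**Figure D1:**
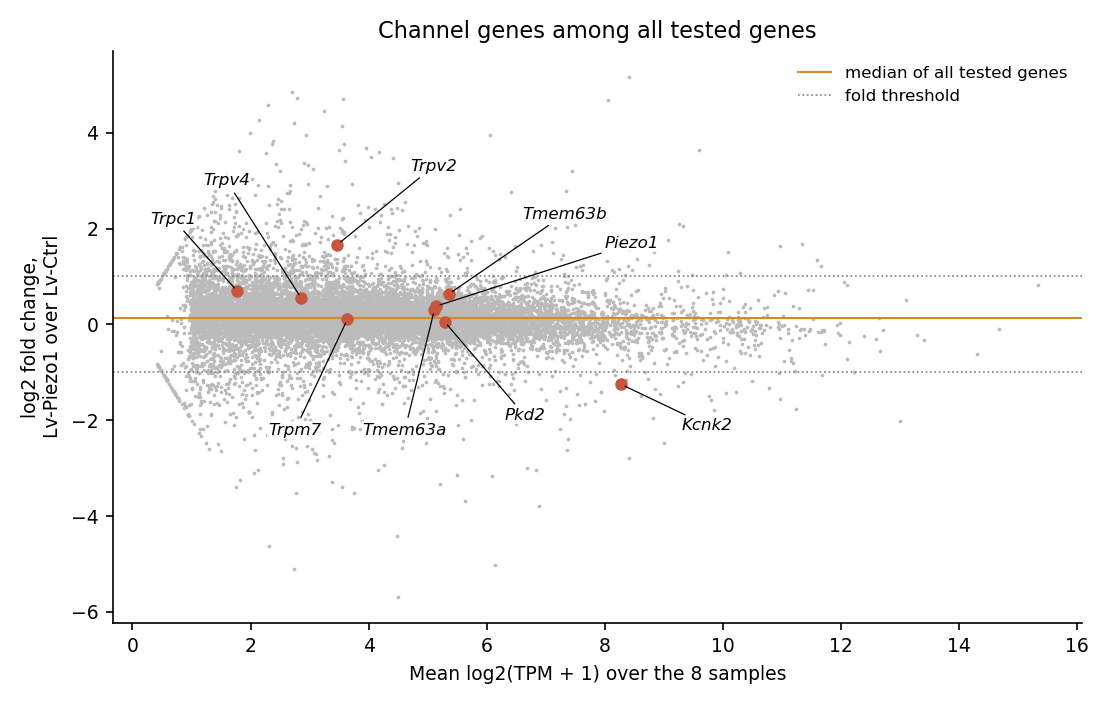
Each grey point is 1 of the 13103 tested genes, with its mean log2(TPM + 1) over the 8 samples on the x axis and its log2 fold change, Lv-Piezo1 over Lv-Ctrl, on the y axis. The 9 tested channels are in red, the orange line is the median of all genes at 0.14 and the dotted lines mark the fold threshold, which Trpv2 at 1.67 and Kcnk2 at -1.25 passed.

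The levels spanned a wide range. TPM is per length, so genes can be compared within a sample. In the Lv-Ctrl samples Kcnk2 was far above the rest at 478 ± 20.0 TPM (SD, n = 4), followed by Pkd2, Tmem63b, Tmem63a and Piezo1, whose ranges overlapped from each to the next, then Trpm7, Trpv2, Trpv4, Trpc1 and Piezo2. Trpv2 and Trpv4 also overlapped. In the Lv-Piezo1 samples Kcnk2 still led, Tmem63b came next and apart from the others, Piezo1, Pkd2 and Tmem63a overlapped from each to the next, and Trpv2 stood above Trpm7 in every sample. Trpv4, Trpc1 and Piezo2 closed the order in both groups.

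**Figure D2:**
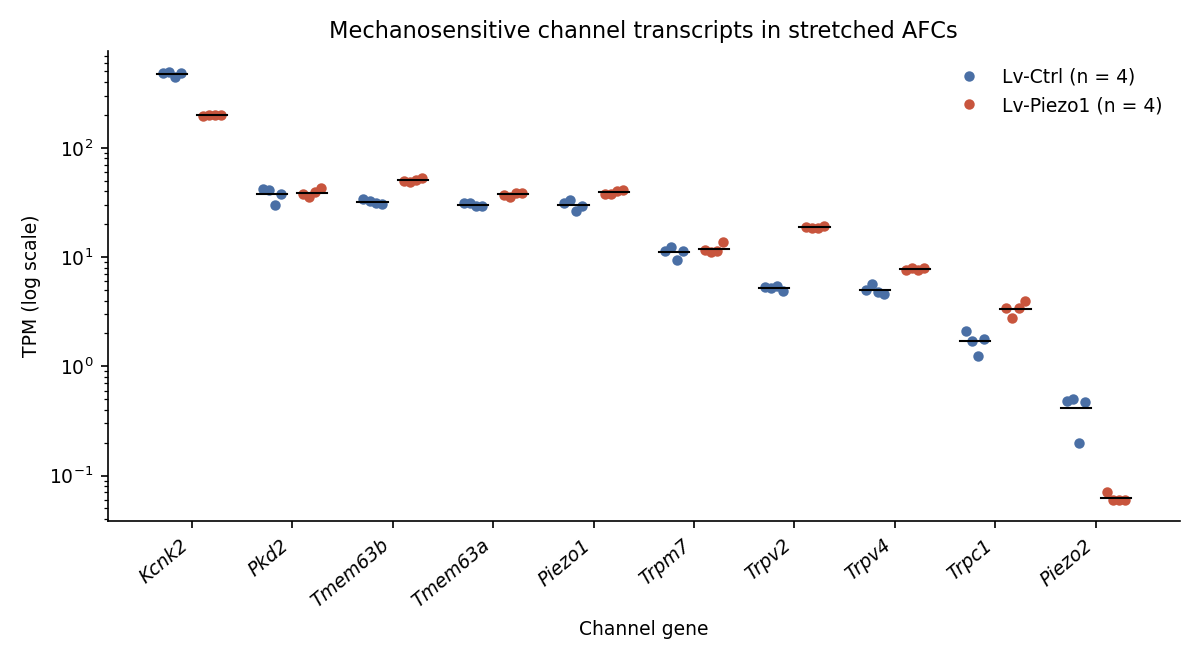
TPM of the 10 channel genes on a log axis, 1 point per sample, with the group mean as a line, Lv-Ctrl and Lv-Piezo1 side by side. Kcnk2 at 478 against 199.8 TPM and Trpv2 at 5.23 against 18.8 TPM are the widest gaps among the 9 tested genes, and the points of Trpm7 and Pkd2 overlap.

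The promoters of Kcnk2 and Trpv2 are shown because these had the largest fall and rise of the 9 tested members on log2(TPM + 1). Piezo2, below the filter, had the larger ratio of means (6.6-fold lower, against 2.39-fold for Kcnk2). Of the 10 members, 7 matched the RefSeq promoter table of assembly GRCr8, and Piezo1, Trpc1 and Tmem63b did not. The 250 bases before the annotated start are given 5′ to 3′ on the gene's strand, with CpG dinucleotides in capitals. They are chr13:103438643-103438892 on the minus strand for Kcnk2 and chr10:47771973-47772222 on the plus strand for Trpv2.
Kcnk2: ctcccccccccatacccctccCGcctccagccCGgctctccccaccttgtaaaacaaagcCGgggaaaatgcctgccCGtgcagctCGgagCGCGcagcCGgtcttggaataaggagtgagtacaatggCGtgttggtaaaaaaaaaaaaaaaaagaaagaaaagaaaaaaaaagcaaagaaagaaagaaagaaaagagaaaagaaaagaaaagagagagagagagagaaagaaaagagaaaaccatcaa
Trpv2: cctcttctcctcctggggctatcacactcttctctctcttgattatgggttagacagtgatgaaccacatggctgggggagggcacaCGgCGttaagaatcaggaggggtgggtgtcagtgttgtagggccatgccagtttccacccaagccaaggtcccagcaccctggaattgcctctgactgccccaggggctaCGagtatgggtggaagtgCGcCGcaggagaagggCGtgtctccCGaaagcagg
The Kcnk2 window had a GC content of 45.6% with 9 CpG, and its longest unbroken run of purines or of pyrimidines was 67 bases, a length that 0.0687% of the 33469 promoters reached. The Trpv2 window had a GC content of 58.4%, 7 CpG and a run of 14 bases, which 21.9% reached. The median promoter had 51.2% GC and 5 CpG, and the other 5 matched channels had 60.4% to 72.8% GC. The window, the run and the CpG marking were chosen after the sequences had been seen. The letters GGGCGG (GC box) were found on either strand in 5 of the 7 channel promoters, all but these 2, and in 30.5% of all promoters. TATAAA was in 0 of the 7 and in 12.9% of all, CATTCC, the letters of a TEAD site, in Pkd2 alone and in 12.1%, and the CArG box, known from serum response factor, in Tmem63a alone and in 1.5%. A match describes letters and not a bound site.

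Piezo1 (ENSRNOG00000056786) encodes the large mechanically gated cation channel that the hairpin targets. Its TPM was 31.1, 33.0, 26.7 and 29.5 in Lv-Ctrl replicates 1 to 4 and 38.1, 37.7, 40.2 and 41.4 in Lv-Piezo1 replicates 1 to 4. The groups did not overlap, and the mean of 39.4 ± 1.75 against 30.1 ± 2.67 TPM (SD, n = 4) was 31.0% higher. The log2 fold change was 0.38 ± 0.06 (SE, 95% interval 0.23 to 0.53, limma adjusted p = 0.00086), 0.24 above the median gene, and it was 0.22 after median-ratio scaling (adjusted p = 0.0028). The exact two-sided permutation p was 0.029, the smallest that 4 against 4 samples allow. Ctu2, a tRNA-modifying gene that overlaps Piezo1 in the GRCr8 annotation, went from 14.8 to 18.2 TPM (log2 fold change 0.28, adjusted p = 0.00058). The strand of the libraries is not given in the sources used here, so reads of overlapping genes cannot be told apart.

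Piezo2 (ENSRNOG00000038784), the sister channel known from touch-sensing neurons and Merkel cells, was near the floor of the table. It had 0.48, 0.50, 0.20 and 0.47 TPM in the Lv-Ctrl samples and 0.07, 0.06, 0.06 and 0.06 TPM in the Lv-Piezo1 samples. All Lv-Ctrl samples were above all Lv-Piezo1 samples, and replicate 3 of Lv-Ctrl was lowest in its group. The mean was 6.6 times as high in Lv-Ctrl, with an exact permutation p of 0.029. Without the filter on low TPM the log2 fold change was -0.40 ± 0.07 (SE, adjusted p = 0.0021), a small value because the pseudocount of 1 exceeds both levels. The values are given with 2 decimals, so the Lv-Piezo1 samples differed by at most a single step.

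Kcnk2 (ENSRNOG00000002653) encodes TREK-1, a background potassium channel that opens with membrane stretch. Its TPM was 487, 493, 449 and 482 in the Lv-Ctrl samples and 197, 202, 200.4 and 199.8 in the Lv-Piezo1 samples. Every Lv-Piezo1 sample lay far below every Lv-Ctrl sample, and the Lv-Piezo1 samples were nearly alike. The mean fell by 58.2%, from 478 ± 20.0 to 199.8 ± 1.89 TPM (SD, n = 4), a level 2.39-fold lower. The log2 fold change was -1.25 ± 0.03 (SE, 95% interval -1.33 to -1.18, adjusted p = 8.8e-09), and -1.42 after median-ratio scaling (adjusted p = 1.5e-09). A larger fall was seen in 288 of the 13103 tested genes. Even so, Kcnk2 remained above 94.6% of the tested genes in level in the Lv-Piezo1 samples, after 97.6% in Lv-Ctrl. In GRCr8 it overlaps the protein-coding gene LOC120096345, so the limit given for Piezo1 holds here too.

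Among the TRP channels, Trpv2 (ENSRNOG00000003104) encodes a calcium-permeable channel opened by swelling and stretch. Its TPM was 5.35, 5.19, 5.46 and 4.93 in the Lv-Ctrl samples and 18.7, 18.5, 18.6 and 19.3 in the Lv-Piezo1 samples. The groups were far apart and each was tight, at 5.23 ± 0.230 and 18.8 ± 0.382 TPM (SD, n = 4), a 3.59-fold higher level. The log2 fold change was 1.67 ± 0.05 (SE, 95% interval 1.56 to 1.78, adjusted p = 1.2e-08), or 1.52 after median-ratio scaling (adjusted p = 3.7e-08). On the deposited scale 221 tested genes had a larger rise than Trpv2. Its level moved from above 29.1% to above 57.2% of the tested genes. In GRCr8 the gene overlaps LOC120095326 and the small nucleolar RNA genes Snord49a, Snord49b and Snord65.

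Trpv4 (ENSRNOG00000001195) encodes a calcium-permeable channel of osmotic and mechanical sensing that is well known from cartilage cells. Its TPM was 4.99, 5.70, 4.78 and 4.58 in the Lv-Ctrl samples and 7.57, 7.96, 7.55 and 7.96 in the Lv-Piezo1 samples. The groups did not overlap and the mean was 1.55-fold higher. The log2 fold change was 0.55 ± 0.07 (SE, adjusted p = 0.00015), or 0.41 after median-ratio scaling (adjusted p = 0.00049).

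Trpc1 (ENSRNOG00000054902) encodes a TRPC subunit tied to store-operated and stretch-linked calcium entry. Its TPM was low, at 2.12, 1.71, 1.23 and 1.77 in the Lv-Ctrl samples and 3.42, 2.74, 3.39 and 3.95 in the Lv-Piezo1 samples. The lowest Lv-Piezo1 sample was still above the highest Lv-Ctrl sample. The mean was 1.98-fold higher, with a log2 fold change of 0.70 ± 0.13 (SE, adjusted p = 0.0015), the widest SE of the 9 tested channels. That change was 0.58 after median-ratio scaling (adjusted p = 0.0025).

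Trpm7 (ENSRNOG00000057806) encodes a magnesium- and calcium-permeable channel fused to a kinase. Its TPM was 11.4, 12.3, 9.33 and 11.3 in the Lv-Ctrl samples and 11.6, 11.0, 11.4 and 13.8 in the Lv-Piezo1 samples. The groups overlapped, and the log2 fold change of 0.10 (95% interval -0.11 to 0.32, adjusted p = 0.36) turned to -0.04 after median-ratio scaling (adjusted p = 0.63).

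Pkd2 (ENSRNOG00000002146) encodes polycystin-2, a TRP-related cation channel of the primary cilium and the endoplasmic reticulum. Its TPM was 41.7, 41.4, 30.2 and 37.4 in the Lv-Ctrl samples and 37.9, 35.4, 39.4 and 42.7 in the Lv-Piezo1 samples. Replicate 3 of Lv-Ctrl was the lowest of all 8, and the rest overlapped. The log2 fold change of 0.05 (95% interval -0.18 to 0.28, adjusted p = 0.69) turned to -0.11 after median-ratio scaling (adjusted p = 0.29) and to -0.05 without that replicate. Replicate 3 was the lowest Lv-Ctrl sample in 6 of the 9 tested channels and in 48.8% of all tested genes.

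The TMEM63 genes encode relatives of the plant OSCA channels, which need strong tension to open. Tmem63b (ENSRNOG00000019743) had 34.0, 32.6, 31.0 and 30.6 TPM in the Lv-Ctrl samples and 49.6, 49.0, 50.3 and 52.7 TPM in the Lv-Piezo1 samples. The groups did not overlap and the mean was 1.57-fold higher. The log2 fold change of Tmem63b was 0.64 ± 0.04 (SE, adjusted p = 2.9e-06), or 0.48 after median-ratio scaling (adjusted p = 4.8e-06). Mrpl14, which overlaps it in GRCr8, had 31.5 and 33.6 TPM (log2 fold change 0.09, adjusted p = 0.33).

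Tmem63a (ENSRNOG00000003310) had 31.0, 31.0, 29.3 and 29.3 TPM in the Lv-Ctrl samples and 36.7, 35.8, 38.4 and 39.0 TPM in the Lv-Piezo1 samples. Here too the groups were apart, by a smaller step than in Tmem63b. The mean was 1.24-fold higher and the log2 fold change was 0.30 ± 0.04 (SE, adjusted p = 0.00023), or 0.15 after median-ratio scaling (adjusted p = 0.0047). Tmem63a overlaps the long non-coding RNA gene LOC134481606 in GRCr8.

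**Figure D3:**
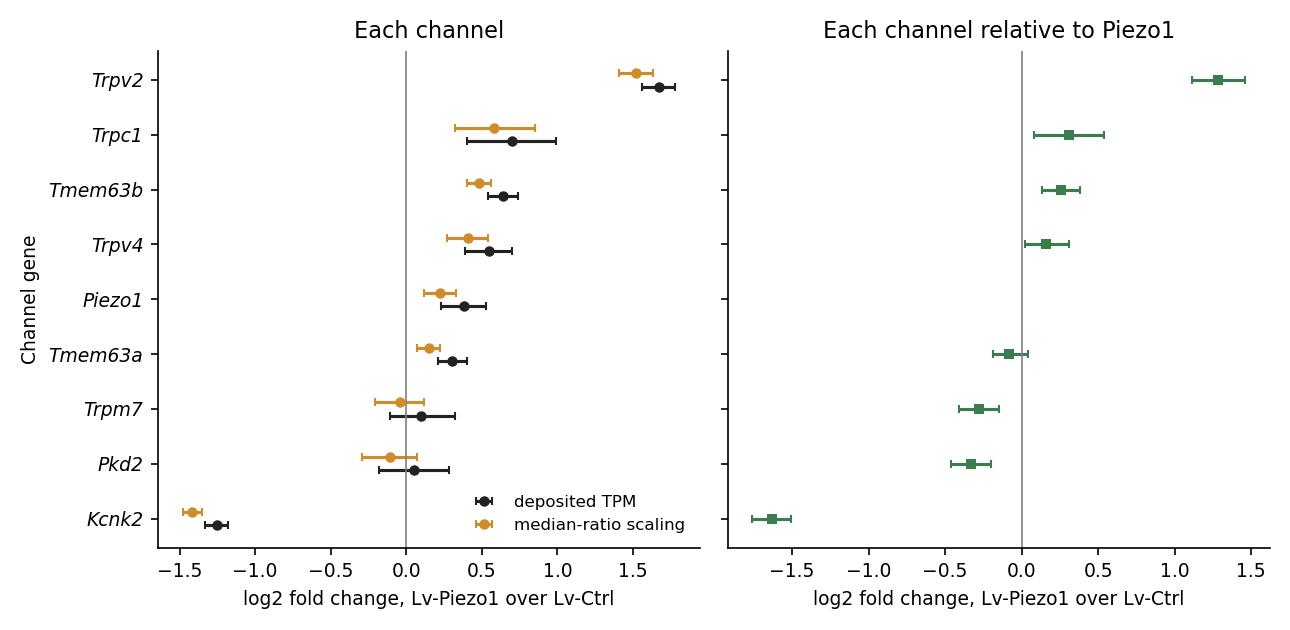
Log2 fold change, Lv-Piezo1 over Lv-Ctrl, of the 9 tested channels on log2(TPM + 1), with 95% intervals, before and after median-ratio scaling on the left, and relative to Piezo1 in the same sample on the right. The scaling shifts every gene to lower values, so that Trpm7 and Pkd2 cross 0, while the 7 that passed the test keep their direction, and relative to Piezo1 the interval of Tmem63a includes 0.

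The channels were then added up in each sample. The 10 together held 649, 657, 587 and 632 TPM in the Lv-Ctrl samples and 401, 399.99, 409.8 and 421 TPM in the Lv-Piezo1 samples, or 631 ± 31.4 against 408 ± 9.61 TPM (SD, n = 4, exact permutation p = 0.029). Without Kcnk2 the direction was the opposite, with 153 ± 11.8 against 208 ± 9.72 TPM (exact permutation p = 0.029). Kcnk2 made up 75.7% ± 0.752 of the sum in Lv-Ctrl and 49.0% ± 1.22 in Lv-Piezo1 samples (SD, n = 4, exact permutation p = 0.029).

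The share of Piezo1 in the sum was 4.79%, 5.02%, 4.55% and 4.66% in the Lv-Ctrl samples and 9.50%, 9.44%, 9.82% and 9.84% in the Lv-Piezo1 samples. The difference was 4.89 percentage points (exact permutation p = 0.029), and it rested on Kcnk2. Among the other 9 channels, a comparison added after the data had been seen, Piezo1 held 19.6% ± 0.455 in Lv-Ctrl and 18.9% ± 0.248 in Lv-Piezo1 samples, a difference of -0.663 points with overlapping groups (SD, n = 4, exact permutation p = 0.057). Per TPM of Piezo1 there were 15.9 ± 0.817 TPM of Kcnk2 in Lv-Ctrl and 5.08 ± 0.228 in Lv-Piezo1 samples, and 0.175 against 0.477 TPM of Trpv2.

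**Figure D4:**
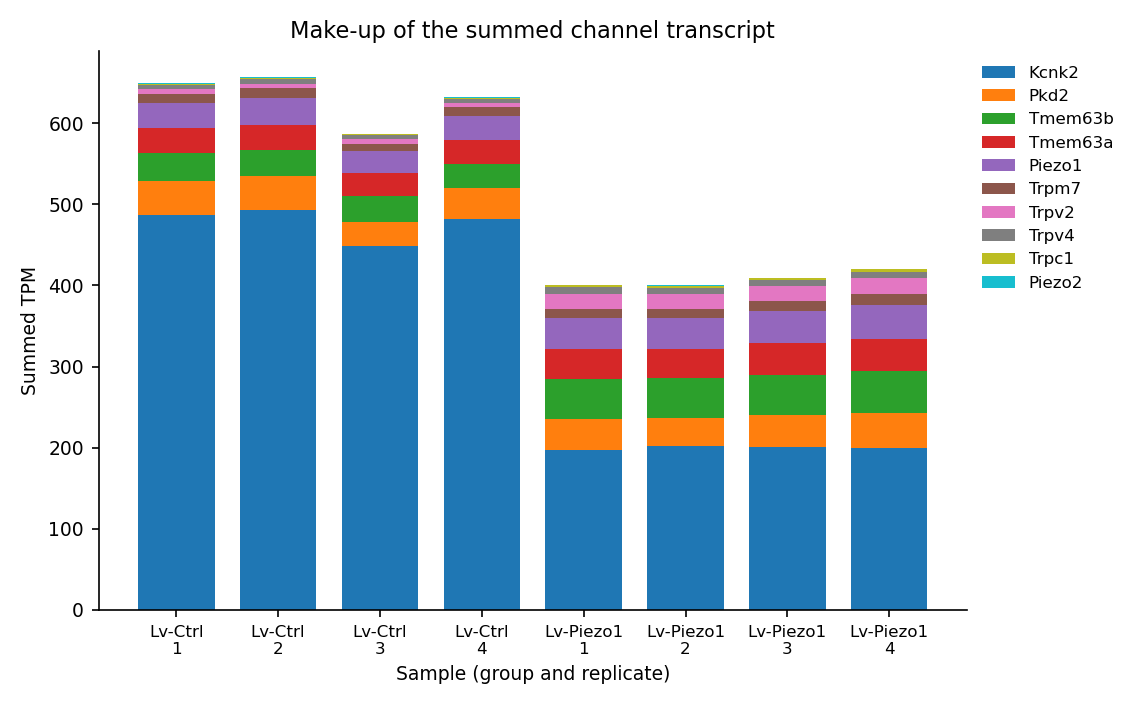
Summed TPM of the 10 channels in each of the 8 samples, stacked by gene from 0. The Kcnk2 segment takes 75.7% of the mean Lv-Ctrl bar and 49.0% of the mean Lv-Piezo1 bar, and the remaining segments together are taller in the Lv-Piezo1 samples.

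The other channels were also set against Piezo1 within each sample, by taking its log2(TPM + 1) from theirs. On this scale 4 of 8 were higher and 3 lower relative to Piezo1 in the Lv-Piezo1 samples, against 12.4% and 50.0% of all tested genes, 62.4% together, with a median gene at -0.24. Trpv2 was higher by 1.28 (95% interval 1.11 to 1.46, adjusted p = 1.8e-06) and Tmem63b by 0.26 (adjusted p = 0.0031). Kcnk2 fell by 1.63 (adjusted p = 5.8e-08), Pkd2 by 0.33 (adjusted p = 0.0012) and Trpm7 by 0.28 (adjusted p = 0.0026) relative to Piezo1. These 5 kept their call under every alternative that was run.

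Trpc1, at 0.31 (adjusted p = 0.024), and Trpv4, at 0.16 (adjusted p = 0.044), were less firm. Trpv4 missed the threshold without any single sample other than Lv-Ctrl replicate 3, with adjusted p from 0.05 to 0.12, and also without the filter on low TPM (0.064), at a minimum mean TPM of 5 (0.07) and with quantile normalization (0.32). Trpc1 missed it without Lv-Ctrl replicate 2 (adjusted p = 0.053), Lv-Ctrl replicate 3 (adjusted p = 0.053), Lv-Piezo1 replicate 1 (adjusted p = 0.062) or Lv-Piezo1 replicate 4 (adjusted p = 0.067), and with quantile normalization (0.083). Tmem63a did not pass, with a difference of -0.08 (95% interval -0.19 to 0.04, adjusted p = 0.22).

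Related genes were described from lists written by family and role. For all the list counts below, the shares over all tested genes were 41.9% higher and 16.3% lower. After median-ratio scaling they were 27.9% higher and 27.9% lower. Of 26 other mechanosensitive or stretch-linked channels, 11 were tested, 3 were higher and 5 lower at an adjusted p below 0.05, and 2 were higher and 6 lower after median-ratio scaling. Their median log2 fold change was -0.02. Gja1, which encodes the gap junction protein connexin 43, fell from 737 ± 83.2 to 288 ± 17.6 TPM (SD, n = 4, log2 fold change -1.35, adjusted p = 1.3e-06). Asic2, an acid-sensing sodium channel, fell from 6.09 ± 0.797 to 0.128 ± 0.0403 TPM (log2 fold change -2.65, adjusted p = 9.8e-08). Trpm3, a calcium-permeable TRP channel, fell from 3.32 ± 0.984 to 0.168 ± 0.0974 TPM (log2 fold change -1.87, adjusted p = 1.5e-05). These were the 3 past the fold threshold, and all had lower values in the Lv-Piezo1 samples. Pkd1, the partner of polycystin-2, rose from 25.9 to 39.8 TPM (log2 fold change 0.60, adjusted p = 0.00018), while the rise of Tmem120a from 72.4 to 81.5 TPM (log2 fold change 0.17, adjusted p = 0.0033) was lost after median-ratio scaling (0.01, adjusted p = 0.90).

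Of 15 other TRP channels, 3 were tested, and 1 was higher, 1 lower and 1 not past the test, or 1 higher and 2 lower after median-ratio scaling. Trpc4, which forms channels with Trpc1, rose from 2.58 ± 0.0818 to 11.0 ± 0.535 TPM (SD, n = 4, log2 fold change 1.75, adjusted p = 2.9e-08). Mcoln1, a lysosomal channel, had 37.4 and 36.6 TPM (log2 fold change -0.03, adjusted p = 0.68, and -0.19 with adjusted p = 0.041 after scaling). Trpm1 fell from 3.05 to 1.90 TPM (log2 fold change -0.49, adjusted p = 0.041, and 0.065 without the filter on low TPM). Of 11 other two-pore potassium channels, 4 were tested, 2 were higher and 1 lower, and after median-ratio scaling 1 was higher and 2 lower. Kcnk3, which encodes the acid-sensitive channel TASK-1, fell from 13.1 ± 2.14 to 2.19 ± 0.929 TPM (log2 fold change -2.18, adjusted p = 1.7e-05), as Kcnk2 did. Kcnk12 rose from 10.4 to 15.5 TPM (log2 fold change 0.52, adjusted p = 0.0024), and Kcnk5 had 16.97 and 15.4 TPM (log2 fold change -0.13, adjusted p = 0.19, and -0.29 with adjusted p = 0.0081 after scaling). Of 6 listed TMC channels, 5 had a row in the table, and none of these reached a mean TPM of 1.

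Of 8 genes for proteins that bind or modulate Piezo channels, 6 were tested, 2 were higher and 3 lower. Atp2a2, which encodes the calcium store pump SERCA2, fell from 976 to 421 TPM (log2 fold change -1.21, adjusted p = 4.7e-06), and Stom, which encodes the membrane protein stomatin, fell from 68.7 to 58.2 TPM (log2 fold change -0.24, adjusted p = 0.00048). Cav1, which encodes the caveolar coat protein caveolin-1, rose from 148 to 203 TPM (log2 fold change 0.45, adjusted p = 2.9e-05). The MyoD family inhibitor proteins, known as auxiliary subunits of Piezo channels, were picked out after their values had been seen. Mdfic fell from 16.9 to 11.6 TPM (log2 fold change -0.51, adjusted p = 6.2e-05) and Mdfi rose from 2.61 to 5.63 TPM (log2 fold change 0.87, adjusted p = 0.00023), so that this pair moved in opposite directions.

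All 5 subunits of the volume-regulated anion channel were tested, and 2 were higher and 1 lower, or 2 and 2 after median-ratio scaling. Lrrc8d fell from 46.4 to 26.6 TPM (log2 fold change -0.78, adjusted p = 2.1e-06), Lrrc8c rose from 5.96 to 10.2 TPM (log2 fold change 0.68, adjusted p = 1.5e-05), and Lrrc8a, the obligatory subunit, had 25.7 and 25.2 TPM (log2 fold change -0.02, adjusted p = 0.77, and -0.18 with adjusted p = 0.0079 after scaling). Of 6 calpain and apoptosis genes, among them those the study places downstream of calcium entry, 2 were higher at an adjusted p below 0.05. Neither was higher after median-ratio scaling, where 1 was lower. These values are RNA, whereas the study measured calpain activity and the proteins Calpain1, Calpain2, Bax and cleaved Caspase3. It reported that all of these declined after Lv-Piezo1, and neither protein nor activity can be read from TPM. Capn2 had 94.5 and 105 TPM (log2 fold change 0.16, adjusted p = 0.049, and -0.00 with adjusted p = 0.93 after scaling), and Bax had 53.5 and 66.9 TPM (0.32, adjusted p = 0.0052, and 0.16 with adjusted p = 0.19 after scaling). Capns1, the small calpain subunit, had 289.9 and 307 TPM (log2 fold change 0.08, adjusted p = 0.11).

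**Figure D5:**
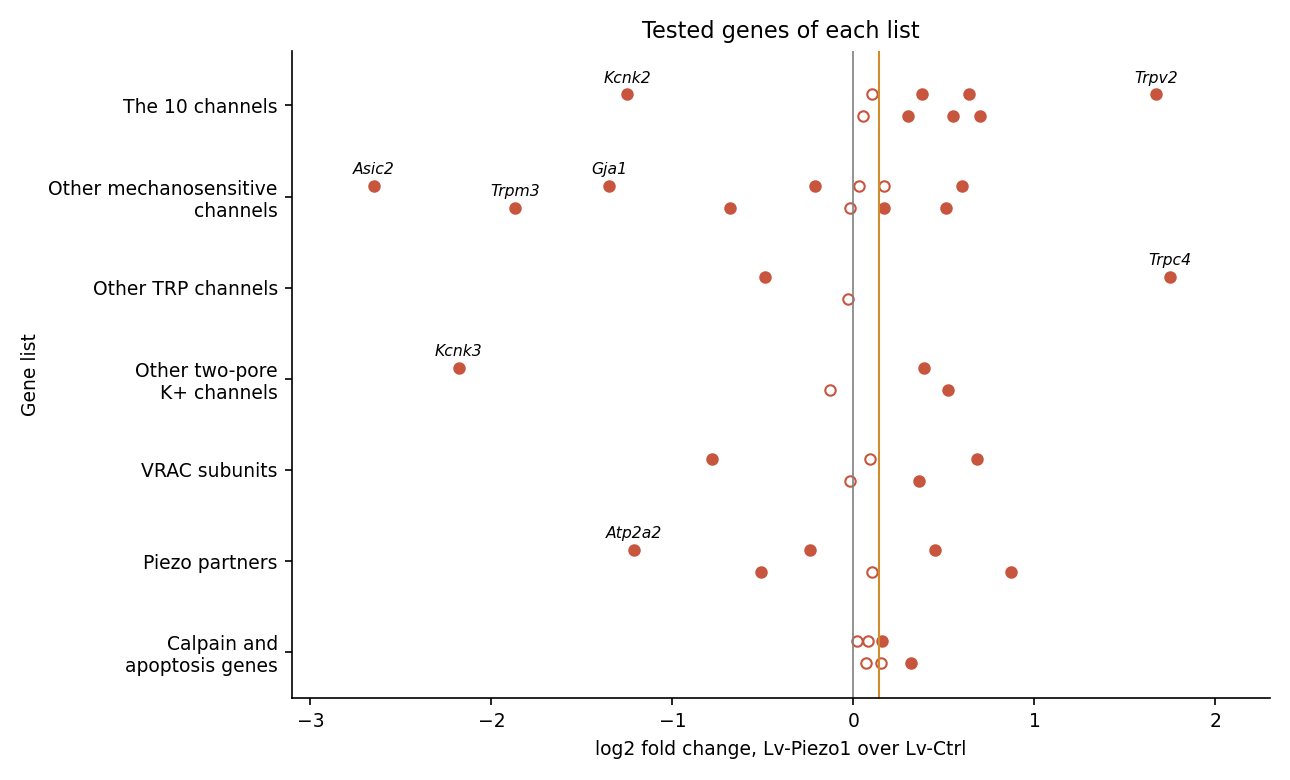
Log2 fold change, Lv-Piezo1 over Lv-Ctrl, of each tested gene in the channel list and the related lists, 1 point per gene, filled where the limma adjusted p is below 0.05. The grey line marks 0 and the orange line the median of all tested genes at 0.14. Named genes are past the fold threshold, and among the related lists all of them except Trpc4 are on the lower side.

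Among the genes most like Piezo1 over the 8 samples, by Pearson correlation of log2(TPM + 1), were Ssh1 (0.997), Dop1b (0.996), Bcl2l13 (0.996) and Golgb1 (0.995). A total of 1188 genes reached 0.95, and this measure holds the difference between the groups. By deviations from the group means they were Zmynd8 (0.994), Rere (0.993), Msantd1 (0.993), Adam19 (0.993) and Rcan1 (0.992), with 401 genes at 0.95 or more. All points share their libraries, so these values describe the samples only.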

How the data were processed

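RNA-seq was measured in 4 Lv-Ctrl and 4 Lv-Piezo1 samples of stretched AFCs. The authors filtered reads, mapped them to the rat genome with HISAT2 and assembled transcripts with StringTie, and the deposited values are TPM with 2 decimals, 1 column per sample. Their methods name FPKM, and the submitters' processing notes list DESeq2 and mm10, a mouse build, so the build of the table is unclear. TPM is no count, so no count model was used.

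Log2(TPM + 1) was fitted with limma 3.58.1 in R 4.3.3 (empirical Bayes with a trend, no block) over the 13103 genes whose mean TPM reached 1. Single values were compared with exact two-sided permutation tests over 70 relabelings (scipy 1.17.1). Thresholds were an adjusted p of 0.05 and, for calls by fold, a log2 change of 1. The fit was also run on simulated data with the spreads of these 13103 genes. Changes below 1.5 on the log2 scale were not simulated, so recovery of changes as small as that of Piezo1 is unknown. Recovered genes had to pass both thresholds in the right direction. The fit recovered 91 of 99 genes changed by 1.5 and 96 of 101 changed by 2. The recovery limit in the script was lowered after this result had been seen.

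The members and lists were chosen with earlier results of these data known. Named genes are the 10 members, the genes of each list past the fold threshold or among its 3 highest in TPM, and the 5 most like Piezo1 by each measure, of which 1 is not reported here. Mdfic and Mdfi, and genes overlapping a member such as Ctu2 and Mrpl14, are named outside this rule. Markers of cell types are given mainly as sums. Alternatives were a pseudocount of 0.1, no filter, a minimum mean TPM of 5, quantile normalization, median-ratio scaling, no mitochondrially encoded genes, moderation without a trend, a replicate block and leaving out each sample.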

Additional observations from a re-analysis of the deposited data

Results flagged for a closer look

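Of 20 groups of 4 samples, 2 for each channel, 2 held a sample far from the other 3 by Dixon's test, where chance flags about 1 in 20. Both were of Piezo2. The lowest Lv-Ctrl sample, replicate 3, had 0.2 TPM against 0.47 to 0.50 TPM in the others. The highest Lv-Piezo1 sample, replicate 1, had 0.07 TPM against 0.06 TPM in the other 3, a difference of the last decimal in the table.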

How the results depend on the processing

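The count of channels past the fold threshold was 2 under all alternatives run. At an adjusted p below 0.05 alone it was 7 under all but 2 of them, 8 without the filter on low TPM, where Piezo2 was also tested, and 6 at a minimum mean TPM of 5, which Trpc1 did not reach. Log2 fold changes without 1 sample ran from 0.33 to 0.43 for Piezo1, 1.64 to 1.68 for Trpv2 and -1.28 to -1.24 for Kcnk2. Trpm7 turned to -0.04 with median-ratio scaling and -0.07 with quantile normalization, and Pkd2 to -0.11 and -0.07 and, without Lv-Ctrl replicate 3, to -0.05. None of these passed the test. The Piezo1 share differed by 4.82 to 4.98 points without 1 sample (exact permutation p = 0.057, the smallest that 3 against 4 allow) and by -0.663 points without Kcnk2. Channels past the test relative to Piezo1 numbered 7, also 7 without the filter, where Piezo2 passed (-0.79, adjusted p = 2.1e-05) and Trpv4 did not, 5 to 6 without 1 sample, 5 at a mean TPM of at least 5 and 5 with quantile normalization. In the related lists 6 genes were past the fold threshold. They were 3 of 11 tested other mechanosensitive channels and 1 of 3 other TRP channels. The rest were 1 of 4 other two-pore potassium channels and Atp2a2, 1 of 6 Piezo-modulating genes. All except Trpc4 were lower. Over all tested genes 7.67% were past this threshold, 4.91% higher and 2.76% lower. The count over the related lists was 8 with a pseudocount of 0.1 and 4 at a mean TPM of at least 5.

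Both groups came from the study's 4 biological repeats, but the labels do not say that a replicate number marks a shared isolation. The deviations of same-numbered samples correlated between -0.0576 and -0.0124 over genes. Same-numbered samples were each other's closest match across the groups in 0 of 4 cases. With the replicate block the counts were 7 and 2, 6 channels passed relative to Piezo1 (Trpv4 adjusted p = 0.089), and the share difference of 4.89 points had an exact sign-flip p of 0.12, the smallest that 4 pairs allow.

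The depth is unknown, so counting error could not be given, and low values such as those of Piezo2 rest on the spread between samples alone.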
